A study of Mus musculus with 92 samples.

Results

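Quadriceps muscle with high expression of 3 immediate-early genes, Egr1, Fos and Junb, was compared with quadriceps in which the same genes were low. A score was computed for each of 92 mice as the mean of the standardised log2 levels of Egr1, Fos and Junb, and the 23 animals with the highest score (the high group) were set against the 23 with the lowest (the low group), so that 46 of the 92 animals entered the comparison. The groups were therefore cut from measured values and not by a treatment. The levels of the 3 scoring genes are given as a description only, and the tests concern the 13438 other genes.

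All 92 animals were DOz mice, an outbred stock derived from the Diversity Outbred population, whose members differ in their genotypes. Both groups were kept on standard chow for life and were sampled at about 18 to 20 weeks of age. The treatment label was Chow for all 92 animals. Polyadenylated RNA of the quadriceps was sequenced, and 1 library was made per animal. The labels give no time of day, interval between death and dissection, or activity before sampling, so differences of these kinds between the 46 animals were not tested. The tissue is bulk muscle, in which fewer cells of a type and less RNA per cell cannot be told apart.

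Immediate-early genes are transcribed within minutes of a stimulus without the need for new protein synthesis. In skeletal muscle they respond to contraction, stretch, injury, growth factors and handling of the tissue, through MAP kinases that act on serum response factor and its partners and through CREB. Egr1 encodes a zinc finger transcription factor, whereas Fos and Junb encode subunits of the AP-1 transcription factor. Their transcripts are short-lived, and part of the induced programme consists of feedback proteins, such as phosphatases that switch the kinases off and RNA-binding proteins that shorten the life of the messages.

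Levels are log2 values on an approximate per-million scale, on which 0 stands for a linear value of about 1 and a difference of 1 for a doubling. Egr1 (ENSMUSG00000038418) ranged in the high group from 3.34 to 6.18 with a median of 4.93, and in the low group from 0.97 to 3.83 with a median of 2.45. Fos (ENSMUSG00000021250) ranged from 3.16 to 5.30 with a median of 3.92 in the high group, and from 0.54 to 3.34 with a median of 1.64 in the low group. Junb (ENSMUSG00000052837) ranged from 2.91 to 5.24 with a median of 3.54, against 1.67 to 2.71 with a median of 2.12. The groups did not overlap for Junb and overlapped by few animals for Egr1 and Fos, since 21 of the 23 high animals lay above every low animal for Egr1 and 22 did for Fos. The mean difference was 2.58 for Egr1, 2.27 for Fos and 1.65 for Junb. At the boundaries the score was 0.63 in the last animal of the high group and 0.59 in the next one below it, and it was -0.71 in the first animal of the low group and -0.64 in the one above it, so neither boundary falls at a gap.

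**Figure D1:**
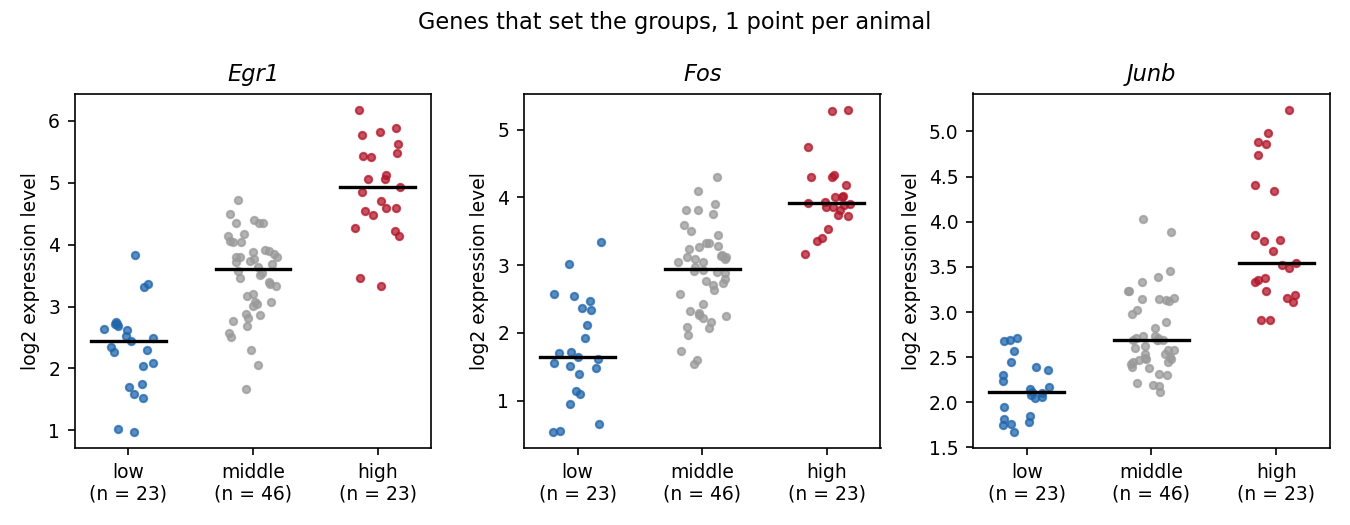
Log2 expression level of Egr1, Fos and Junb in each of the 92 animals, grouped by score into low (n = 23), middle (n = 46) and high (n = 23). Each point is 1 animal and each bar is the group median; the low and high groups overlap for Egr1 and Fos and not for Junb, and the middle animals bridge them.

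The 3 genes did not rank the animals in the same order. Over the 92 animals Pearson's r was 0.547 between Egr1 and Fos, 0.51 between Egr1 and Junb and 0.646 between Fos and Junb, given as descriptions of levels read from the same libraries. Of the 23 animals in the high group, 18 were among the 23 highest for Egr1 alone, 17 for Fos alone and 17 for Junb alone. Only 8 animals were among the 23 highest for all 3 genes, and 8 were among the 23 lowest for all 3. A high score thus stood for different combinations of the 3 transcripts in different animals.

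Libraries of both groups had similar overall levels. The median log2 level of a library lay between 3.45 and 3.55 in the high group and between 3.43 and 3.54 in the low group, and the most abundant transcript took 4.54 to 8.43% against 5.22 to 7.14% of the summed linear values. The 6 muscle genes Acta1, Ckm, Myh4, Tnnt3, Mb and Ttn lay between 9.06 and 16.35 in every one of the 46 animals. The numbers in the sample titles fall into 5 runs, called title-number blocks here because the labels do not say what they are, and the high and low groups held 9 and 5, 4 and 4, 3 and 7, 3 and 3, and 4 and 4 animals of these blocks. The mean position in the order of library numbers was 47 in the high group and 46.7 in the low group (two-sided permutation test, p = 0.97).

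Between the groups, 23 of the 13438 genes tested passed an adjusted p of 0.05 (limma with Benjamini-Hochberg adjustment), which is 0.171% of them. Of these, 17 genes were higher in the high group (0.127%) and 6 were lower (0.0446%). An unadjusted p under 0.05 was found for 1408 genes. Among the 17 higher genes, 6 belonged to lists of immediate-early genes (Fosb, Egr2, Ier2, Btg2, Plk3 and Csrnp1), 2 to a list of feedback regulators (Zfp36 and Dusp1) and 9 to no list, and 27 of the 31 lists examined had no member past the threshold. Within the title-number blocks, 22 of the 23 genes kept the sign of their difference in all 5, the exception being Tamalin with 4. The genes were chosen on these same animals, which by itself favours the same sign, so this count is a description only. The blocks were uneven between the groups, and with the block as a covariate 18 of the 23 genes passed, whereas Stk26, Tmem170b, Tmem185a, Arhgap22 and 5430416N02Rik did not (adjusted p 0.076, 0.0705, 0.068, 0.107 and 0.0716). The number of genes depended on the animals and covariates used: it was 15 without the 2 animals whose score was farthest from the median, 5, 14, 7 and 9 without block 1, 2, 3 and 4 in turn, and 6 (Ier2, Fosb, Zfp36, Btg2, Dusp1 and Apold1) with the scores of 12 marker lists of other cell and fibre types as covariates.

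**Figure D2:**
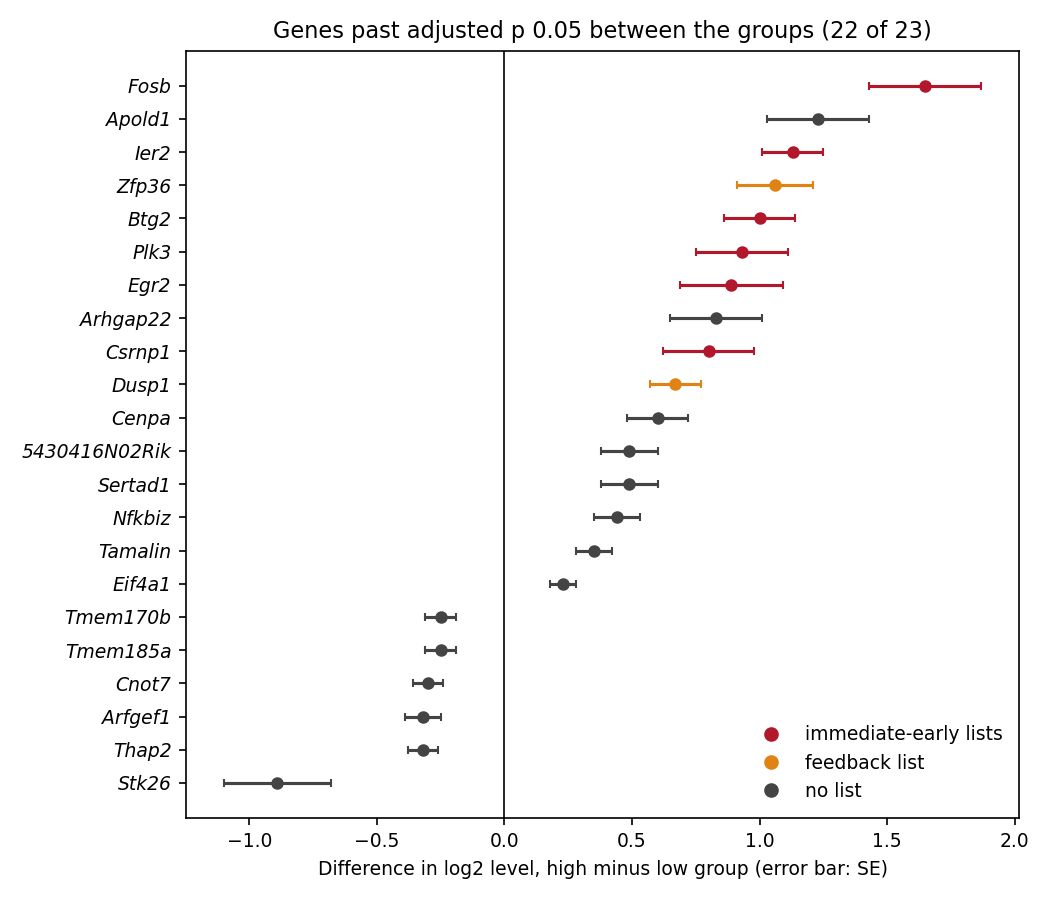
Difference in log2 level between the high and low groups (23 animals each) for 22 of the 23 genes past an adjusted p of 0.05; points are limma estimates and bars their standard errors. The 16 higher genes shown run from Eif4a1 at 0.23 to Fosb at 1.65, and the 6 lower genes lie between -0.25 and -0.32 except Stk26 at -0.89.

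Promoter sequence is shown for 2 of the scoring genes and 4 of the genes that were higher, as examples of the sites classically tied to the immediate-early response. They include the 2 higher genes with a full cyclic AMP response element and the 2 with a serum response factor site, and half-sites also occur in windows not shown. The windows are the 250 bases before the transcription start from RefSeq on GRCm38.p6, the patch release of the mm10 build, written 5′ to 3′ on the strand of the gene. Capitals mark the core of the cyclic AMP response element (CRE), searched as the half-site TGACG and the full site TGACGTCA, and the serum response factor site known as the CArG box; both strands were searched, and a full site holds a half-site on each strand.
Fos, chr12:85473640-85473889, plus strand: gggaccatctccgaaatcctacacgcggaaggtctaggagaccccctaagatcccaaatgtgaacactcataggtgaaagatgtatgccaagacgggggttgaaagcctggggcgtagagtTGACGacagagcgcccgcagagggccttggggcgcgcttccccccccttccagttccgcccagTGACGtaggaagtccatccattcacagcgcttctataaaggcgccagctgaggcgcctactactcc
Junb, chr8:84978749-84978998, minus strand: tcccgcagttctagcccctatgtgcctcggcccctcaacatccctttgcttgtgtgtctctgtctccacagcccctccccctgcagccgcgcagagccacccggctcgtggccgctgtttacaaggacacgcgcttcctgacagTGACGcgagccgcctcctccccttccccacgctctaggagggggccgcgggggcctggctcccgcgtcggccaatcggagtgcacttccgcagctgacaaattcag
Egr2, chr10:67537619-67537868, plus strand: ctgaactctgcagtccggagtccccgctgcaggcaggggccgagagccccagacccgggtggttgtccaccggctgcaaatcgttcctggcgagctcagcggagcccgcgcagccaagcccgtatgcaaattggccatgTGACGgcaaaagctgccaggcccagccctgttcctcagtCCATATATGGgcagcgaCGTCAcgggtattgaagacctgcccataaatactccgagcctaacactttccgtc
Btg2, chr1:134079156-134079405, minus strand: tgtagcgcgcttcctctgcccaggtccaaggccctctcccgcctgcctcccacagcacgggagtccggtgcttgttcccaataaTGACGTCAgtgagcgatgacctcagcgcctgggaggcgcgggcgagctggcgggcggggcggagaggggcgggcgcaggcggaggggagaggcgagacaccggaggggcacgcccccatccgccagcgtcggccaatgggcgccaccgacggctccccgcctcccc
Dusp1, chr17:26508473-26508722, minus strand: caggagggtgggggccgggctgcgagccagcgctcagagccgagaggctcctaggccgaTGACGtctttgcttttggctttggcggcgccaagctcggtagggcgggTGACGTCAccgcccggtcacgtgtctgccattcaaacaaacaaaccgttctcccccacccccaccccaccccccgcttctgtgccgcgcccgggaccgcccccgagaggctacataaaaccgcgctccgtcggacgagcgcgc
Zfp36, chr7:28379229-28379478, minus strand: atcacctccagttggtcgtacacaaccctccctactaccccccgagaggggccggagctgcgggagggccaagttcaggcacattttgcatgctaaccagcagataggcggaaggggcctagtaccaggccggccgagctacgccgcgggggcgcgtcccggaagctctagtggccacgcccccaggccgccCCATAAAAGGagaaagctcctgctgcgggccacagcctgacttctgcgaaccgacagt

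In these windows Btg2 and Dusp1 held the full CRE, Fos and Junb held half-sites, Egr2 held a CArG box and half-sites in the window shown, which is the one with the most matches of its 5, and Zfp36 held a CArG box. Of the 17 higher genes, 13 could be matched to a window. A CRE half-site occurred in 8 of these 13, against 30.3% of the 10120 genes of the table with a window, and the full site in 2 of 13, against 2.96%. Of the 6 lower genes 4 had a window, and the half-site occurred in 2 of these 4 (Tmem185a and Tmem170b). The CArG box occurred in 2 of 13 (1.48% of all windows), the EGR site GCGNGGGCG in 3 of 13 (10.4%; Fosb, Btg2 and Zfp36), and the AP-1 site TGANTCA in 1 of 13 (5.42%; Csrnp1). Tamalin, Nfkbiz and Ier2 were among those not matched. A match describes letters in the sequence and does not show that a factor was bound.

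The 6 immediate-early genes past the threshold outside the score began with Fosb, an AP-1 subunit closely related to Fos. Fosb ranged from -1.70 to 2.39 with a median of 0.57 in the high group, and from -2.62 to -0.19 with a median of -1.11 in the low group. In the high group 18 of 23 animals lay above every low animal, and the difference was 1.65 ± 0.22 (SE), or 3.15-fold, with an adjusted p of 9.37e-06. Ier2, a small nuclear protein induced by growth factors, ranged from 1.57 to 3.48 with a median of 2.75 against 0.85 to 2.04 with a median of 1.55. Of the high animals 21 of 23 lay above every low animal, and the difference of 1.13 ± 0.12, 2.19-fold, had the smallest adjusted p of the genes tested (2.52e-08). Btg2, an antiproliferative protein that recruits the CCR4-NOT deadenylase, ranged from 3.39 to 5.31 with a median of 4.07 against 2.52 to 4.82 with a median of 3.25. One low animal at 4.82 overlapped the upper part of the high group, while all 23 high animals lay above the median of the low group. Btg2 differed by 1.0 ± 0.14, or 2.0-fold (adjusted p 9.37e-06).

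The other 3 were Plk3, Egr2 and Csrnp1. Plk3, a polo-like kinase of the stress response, ranged from -0.97 to 1.88 with a median of 0.34 in the high group and from -1.60 to 0.34 with a median of -0.70 in the low group. It differed by 0.93 ± 0.18 (adjusted p 0.0133), and 12 high animals lay above every low one. Egr2, a zinc finger factor of the same family as Egr1, ranged from -1.88 to 1.40 with a median of -0.02 against -1.89 to 0.23 with a median of -0.65. The lowest animals of both groups were thus at the same level, and the difference was 0.89 ± 0.20 (adjusted p 0.0421). Csrnp1, a nuclear protein with transactivating activity, ranged from 0.55 to 2.61 with a median of 1.13 against -0.46 to 2.07 with a median of 0.56, a difference of 0.80 ± 0.18 (adjusted p 0.0456). Fosb, Plk3 and Egr2 averaged below 0 over the 92 animals, and the reads behind these low values are not known. When genes with a mean under 1 were left out, 2 immediate-early genes (Ier2 and Btg2) remained among those tested and past the threshold.

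**Figure D3:**
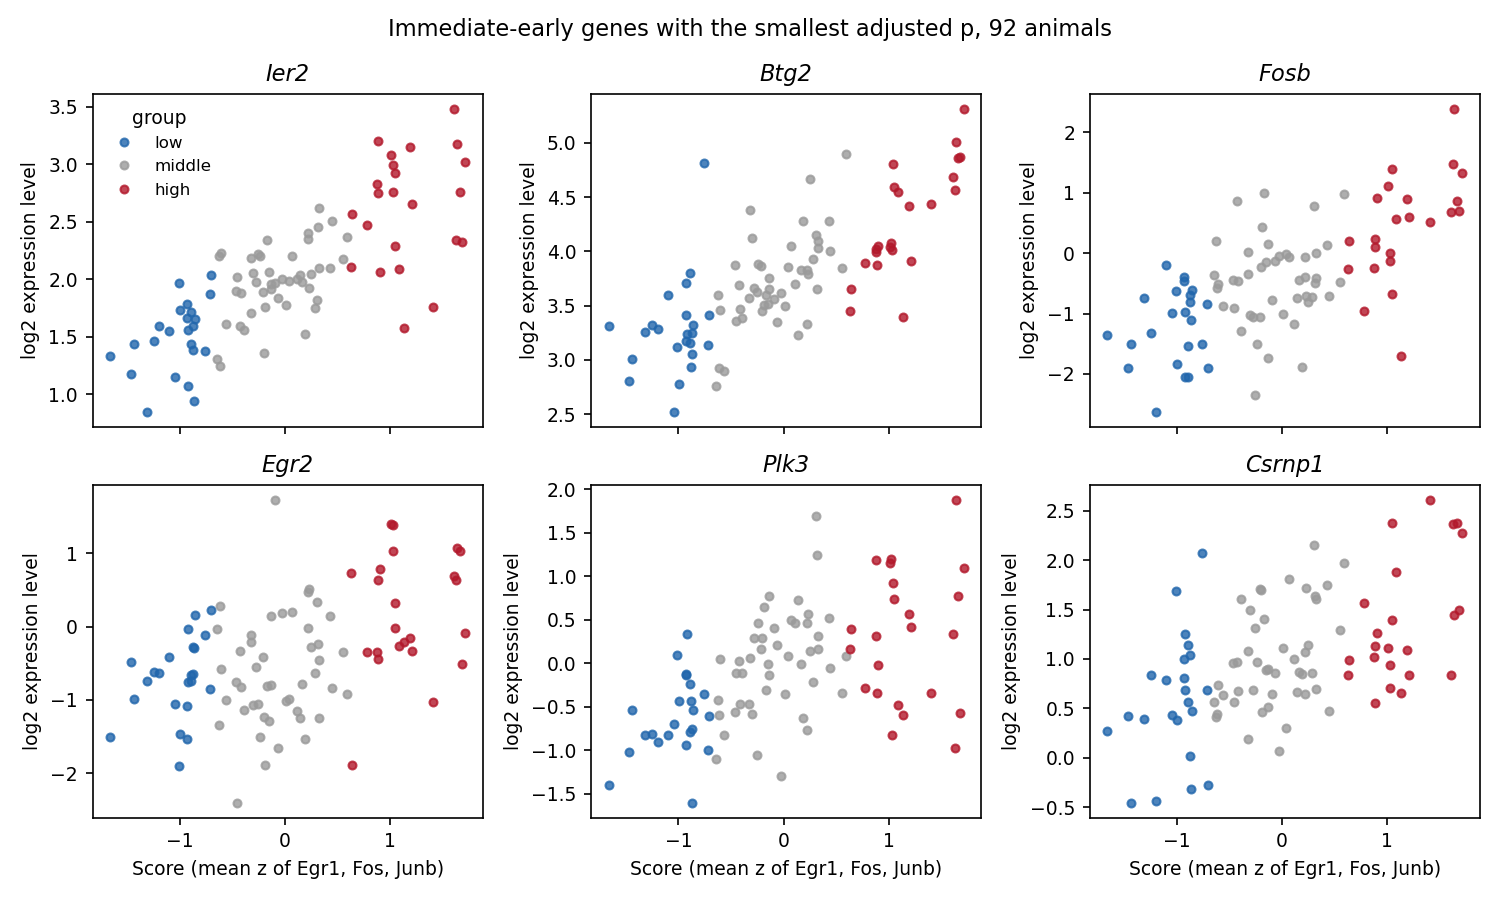
Log2 expression level of Ier2, Btg2, Fosb, Egr2, Plk3 and Csrnp1 against the score in 92 animals, coloured by group. High animals lie above most low animals in each panel, with the least overlap for Ier2 (1.57 to 3.48 against 0.85 to 2.04), and single low animals reach high levels of Btg2 (4.82) and Csrnp1 (2.07).

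Among feedback regulators 2 of 23 measured genes were higher, against 0.127% of all genes. Zfp36 encodes tristetraprolin, which binds AU-rich elements in short-lived messages and speeds their decay. Its level ranged from 3.53 to 5.79 with a median of 4.03 in the high group and from 2.63 to 4.4 with a median of 3.1 in the low group. All but 2 of the low animals (21 of 23) lay below every high animal, and the difference was 1.06 ± 0.15, or 2.09-fold (adjusted p 9.37e-06). Dusp1, a phosphatase that inactivates MAP kinases, was more abundant, at 4.83 to 6.59 with a median of 5.82 against 4.61 to 6.0 with a median of 5.16. It differed by 0.67 ± 0.10, or 1.59-fold (adjusted p 0.000119), and 22 of 23 high animals were above the median of the low group. Among the other feedback genes, Socs3, an inhibitor of cytokine receptor signalling, had a larger difference of 1.25 ± 0.30 that missed the threshold (adjusted p 0.0617), and Nfkbia, the inhibitor of NF-kappaB, had 0.43 ± 0.10 (adjusted p 0.0615). For the MAP kinase phosphatases Dusp6 and Dusp5 and the receptor inhibitors Spry1 and Spry2 the differences were 0.02 ± 0.11, 0.07 ± 0.23, 0.06 ± 0.08 and -0.08 ± 0.06, all with adjusted p of at least 0.634. Over the list the median difference was 0.14, against -0.01 over all genes.

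Outside the lists, Apold1 had a large difference. Apold1, known as an early response gene of vascular endothelium, ranged from 0.61 to 3.62 with a median of 1.61 in the high group and from -0.43 to 1.71 with a median of 0.44 in the low group. All 23 high animals were above the median of the low group, and the difference was 1.23 ± 0.20, or 2.34-fold (adjusted p 0.000557). The endothelial marker list stood beside Apold1 with a median difference of -0.02 and a summed level of 7.68 to 8.78 in the high group and 8.10 to 8.77 in the low group. Its 10 members ran from -0.22 to 0.40. With the marker scores as covariates, which include this list, Apold1 remained past the threshold. The part of endothelial cells in the difference of Apold1 was not tested.

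Smaller differences were found in Nfkbiz, Sertad1, Tamalin and Eif4a1. Nfkbiz, an atypical nuclear inhibitor of NF-kappaB, differed by 0.44 ± 0.09 (adjusted p 0.0232) between 0.91 to 2.27 and 0.60 to 2.13. Sertad1, a regulator of cyclin-dependent kinase 4, differed by 0.49 ± 0.11 (adjusted p 0.0341), and 5 high animals lay below the low median. Tamalin, a scaffold protein, differed by 0.35 ± 0.07 (adjusted p 0.0239). Eif4a1, the RNA helicase of translation initiation, was the most abundant of the higher genes, at 5.96 to 6.68 with a median of 6.37 against 5.80 to 6.37 with a median of 6.10, and differed by 0.23 ± 0.05, or 1.17-fold (adjusted p 0.0232). These ranges overlap widely, so that the differences lie in the centres of the groups. Arhgap22, a GTPase-activating protein (0.83 ± 0.18, adjusted p 0.0341), Cenpa, the centromeric histone (0.60 ± 0.12, adjusted p 0.0175), and the locus 5430416N02Rik (0.49 ± 0.11, adjusted p 0.0298) were also higher, at mean levels of -0.75, 0.73 and 0.30. They were under the level set for naming genes and are named because they complete the count, after their values had been seen. The exons of 5430416N02Rik, Arhgap22, Csrnp1, Dusp1, Plk3, Zfp36 and Junb overlap those of another annotated gene on the opposite strand, so reads of these genes could be shared if strand was not used in counting. Exons of Eif4a1 overlap snoRNA genes on the same strand, which counting by strand would not separate.

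The 6 lower genes shared no list, and the differences of all but Stk26 were small. Stk26, a kinase of the germinal centre family, ranged from 0.12 to 2.95 with a median of 1.41 in the high group and from 0.80 to 2.99 with a median of 2.31 in the low group. In the high group 21 of 23 animals lay below the low median, and Stk26 fell by 0.89 ± 0.21, or 1.85-fold (adjusted p 0.0462). Cnot7, a catalytic subunit of the CCR4-NOT deadenylase, ranged from 4.93 to 5.76 against 5.37 to 6.04, and its difference was -0.30 ± 0.06 (adjusted p 0.018). The level of Thap2, a zinc finger protein of the THAP family, was 3.23 to 4.39 against 3.96 to 4.56, a difference of -0.32 ± 0.06 (adjusted p 0.0175). For Cnot7 and Thap2 the differences within the 5 blocks ran from -0.34 to -0.26 and from -0.33 to -0.26. Both genes were chosen on these same animals, so the closeness of these values is a description only. Arfgef1, an exchange factor for ARF GTPases, differed by -0.32 ± 0.07 (adjusted p 0.0341), Tmem170b by -0.25 ± 0.06 (adjusted p 0.0341) and Tmem185a by -0.25 ± 0.06 (adjusted p 0.0456). No lower gene passed the threshold with the marker scores as covariates, and exons of Cnot7 overlap those of Zdhhc2 on the opposite strand.

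Most immediate-early genes had a positive difference that did not pass the threshold. The 4 lists named 58 genes besides the scoring genes, of which 51 were measured. Their differences ran from -0.35 to 1.65 with a median of 0.31, against a median of -0.01 over all 13438 genes. A positive difference was found in 44 of 51, against 47.2% of all genes, and an unadjusted p under 0.05 in 28, against 10.5%, while 6 passed after adjustment over all genes (0.171% of all genes did). The nearest to the threshold were Hes1, a repressor downstream of Notch (0.56 ± 0.13, adjusted p 0.0589), Errfi1, an inhibitor of the EGF receptor (0.38 ± 0.09, adjusted p 0.0656), Klf2 (0.67 ± 0.17, adjusted p 0.0844) and Myc (0.53 ± 0.14, adjusted p 0.0873). Fosl1, Batf, Batf3, Egr3, Egr4, Npas4 and Ptgs2 were not analysed here.

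Several classical members did not pass the threshold. Jun, the main partner of Fos in AP-1, ranged from 5.61 to 7.26 with a median of 6.15 against 5.36 to 6.8 with a median of 5.86, and differed by 0.17 ± 0.12 (adjusted p 0.628). Atf3, a stress-induced AP-1 family member, ranged from 1.47 to 5.72 in the high group and from 1.09 to 5.38 in the low group, and differed by 0.04 ± 0.33 (adjusted p 0.983). Both groups held animals across the whole range of Atf3, with 12 high animals above the low median and 11 below it. The orphan receptors Nr4a1, Nr4a2 and Nr4a3, which are induced by muscle contraction, differed by 0.48 ± 0.16, 0.55 ± 0.27 and 0.47 ± 0.50 (adjusted p 0.25, 0.467 and 0.772). Nr4a3 had the widest error of the 3.

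**Figure D4:**
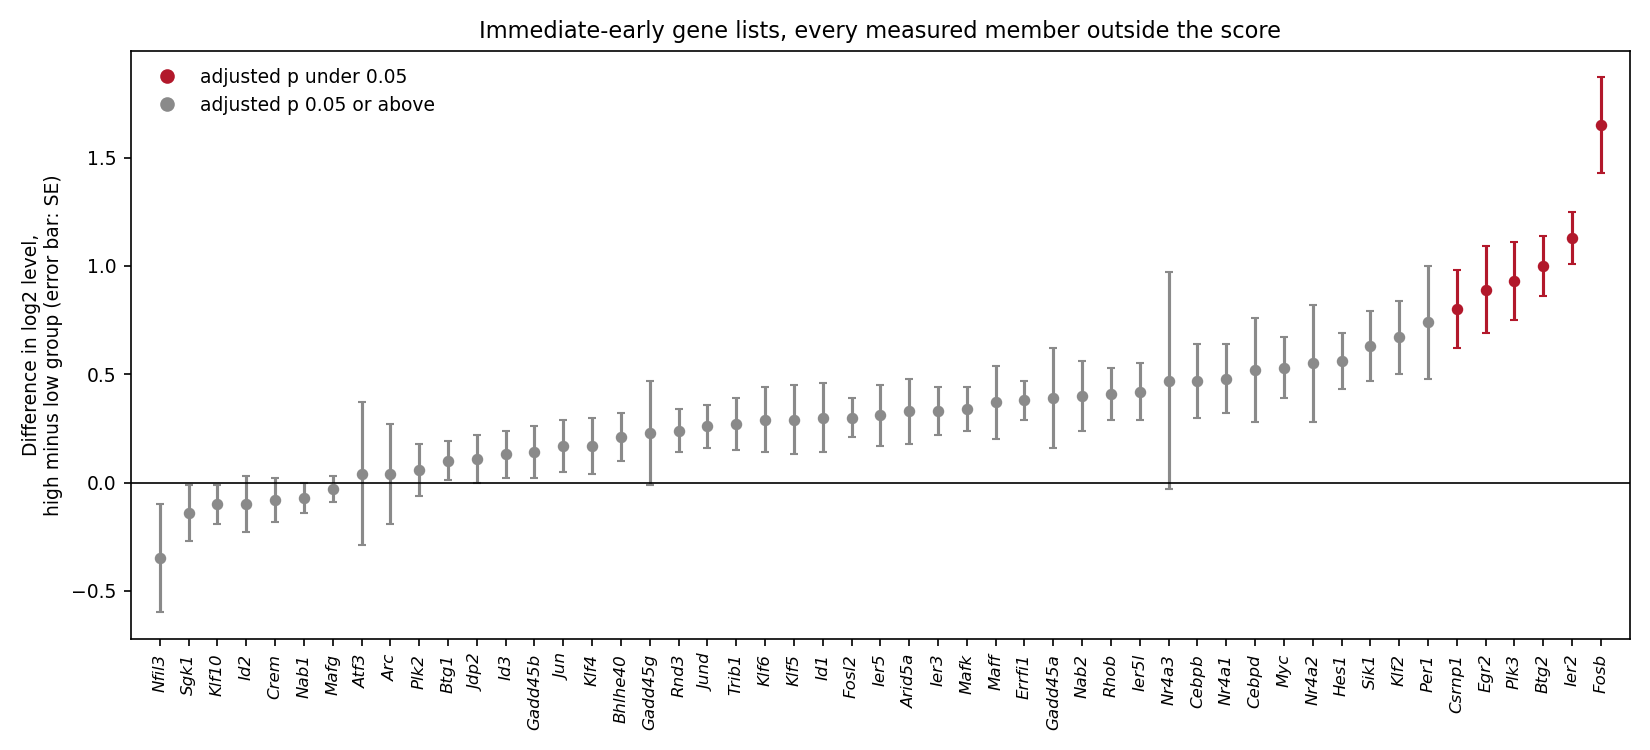
Difference in log2 level, high minus low group, for the 51 measured immediate-early genes outside the score, in order of size; bars are standard errors. The 6 genes past an adjusted p of 0.05 lie between 0.80 (Csrnp1) and 1.65 (Fosb), and 44 of the 51 lie above 0.

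Pathways upstream of and next to the immediate-early response had no member past the threshold. With 0.171% of all genes past it, a count of 0 in lists of this size says nothing about the members, and the median differences describe them. The counts and medians were 0 of 30 genes of MAP kinase and serum response factor signalling (median difference -0.06), 0 of 19 cytoskeletal targets of serum response factor (0.09), 0 of 16 heat shock genes (-0.13), 0 of 16 genes of the unfolded protein response (-0.02), 0 of 19 glucocorticoid-responsive genes (0.11), 0 of 16 clock genes (-0.01), 0 of 11 measured inflammation genes (0.25), 0 of 21 insulin signalling genes (-0.09) and 0 of 23 ceramide genes (0.01). For Cers1 and Cers2, the ceramide synthases of long and very long acyl chains, the differences were -0.14 ± 0.08 and 0.09 ± 0.06 (adjusted p 0.522 and 0.584). For Irs1, the insulin receptor substrate, it was -0.37 ± 0.12 (adjusted p 0.264), for the clock output gene Dbp 0.50 ± 0.27 (0.507), for the inducible chaperone Hspa1a -0.93 ± 0.58 (0.56) and for Pdk4, a fasting-induced kinase, 0.11 ± 0.29 (0.926).

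Marker lists of other cell types also had no member past the threshold, but in the macrophage and tendon lists every measured member had a positive difference, against 47.2% of all genes. With 0.171% of all genes past the threshold, counts of 0 in these short lists are not a result about them. The 10 macrophage genes had a median difference of 0.38, and their summed level was 6.10 to 9.55 in the high group and 5.85 to 7.73 in the low group. The 6 measured tendon genes had a median of 0.47, and their summed level was 5.84 to 7.73 against 5.28 to 7.74. Among macrophage genes, Lyz2 differed by 0.48 ± 0.22 and Mrc1 by 0.36 ± 0.15 (adjusted p 0.445 and 0.374). The medians of the other lists lay at 0.07 for fibroblast, -0.27 for adipocyte, -0.04 for satellite cell, -0.03 for Schwann cell, -0.03 for slow fibre and -0.03 for fast fibre genes. Of the neutrophil list 3 of 8 genes were measured, and of the T and B cell list 1 of 10. The part of the macrophage and tendon genes in the differences of the 23 genes was not tested gene by gene, and the count with marker scores as covariates is given above.

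The slope on the score was also fitted in the 46 middle animals, which the comparison had not used. Within them 0 genes had a slope on the score past the adjusted threshold in limma, and 698 (5.19%) had an unadjusted p under 0.05. Of the 17 higher genes, 15 had a positive slope there, and 7 of them (Apold1, Ier2, Zfp36, Btg2, Plk3, Csrnp1 and Eif4a1) had an unadjusted p under 0.05. The 5.19% of all genes covers slopes of both signs. The share of all genes with each sign is not given here, so the counts of signs are descriptions. Btg2 came closest to the threshold, with a slope of 0.63 ± 0.12 per SD of the score (adjusted p 0.0573). For Ier2 the slope was 0.36 ± 0.11 and for Zfp36 0.49 ± 0.14, whereas for Dusp1 it was 0.05 ± 0.10 and for Fosb 0.24 ± 0.26. Of the 6 lower genes 3 had a negative slope and none had an unadjusted p under 0.05, so the lower genes were not recovered in the animals that the groups left out. The middle animals span only the scores from -0.64 to 0.59, which limits what their slopes can show. Over all 92 animals 127 genes had a slope past the threshold (0.945%), of which 22 were among the 23.

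Other genes did not follow the 3 scoring genes alike. When the 23 highest and 23 lowest animals were chosen by 1 gene alone, 33 genes passed for Egr1 (0.246%), 67 for Fos (0.499%) and 71 for Junb (0.528%), and these held 12, 10 and 8 of the 23 genes. To separate the 3, a linear model chosen after these splits had been seen was fitted over the 92 animals with the standardised levels of Egr1, Fos and Junb together, so that each slope gives the change in log2 level for an increase of 1 SD in that gene at fixed levels of the other two. A slope on Egr1 passed the threshold in 893 genes (6.65%), of which 528 rose (3.93%) and 365 fell (2.72%). A slope on Fos passed in 55 genes (0.409%), of which 39 rose (0.29%) and 16 fell (0.119%), and a slope on Junb in 396 (2.95%), of which 203 rose (1.51%) and the rest fell (1.44%). The slopes on Egr1 and Fos differed in 602 genes (4.48%), those on Egr1 and Junb in 735 (5.47%) and those on Fos and Junb in 53 (0.394%). Of the 114 genes with a slope on both Egr1 and Junb (12.8% of the Egr1 genes and 28.8% of the Junb genes), 112 had opposite signs. Because the predictors are positively correlated with each other, the errors of their slopes are negatively correlated, which by itself favours opposite signs.

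In this model glucocorticoid-responsive genes mostly had negative slopes on Egr1 and positive slopes on Junb. Of the 19 genes, 15 fell with Egr1, against 2.72% of all genes, 9 rose with Junb, against 1.51%, and 2 rose with Fos, against 0.29%. For 17 of the 19 the slopes on Egr1 and Junb differed. The metallothioneins, metal-binding proteins induced by glucocorticoids, zinc and inflammation, had the steepest slopes. Mt2 changed by 1.67 ± 0.18 per SD of Junb (adjusted p 2.72e-11) and by -0.84 ± 0.16 per SD of Egr1 (adjusted p 0.00031). Mt1 changed by 1.20 ± 0.12 with Junb (adjusted p 4.92e-13) and by -0.62 ± 0.11 with Egr1 (adjusted p 3.78e-05). Between the high and low groups, in which Egr1 and Junb were raised together, neither passed: the difference was 0.71 ± 0.38 for Mt1 (adjusted p 0.506) and 1.28 ± 0.52 for Mt2 (adjusted p 0.362).

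Of the other genes of the list, 3 that passed on both Egr1 and Junb are given as examples, chosen after their values were seen. Trim63, a ubiquitin ligase of muscle atrophy, changed by -0.32 ± 0.05 with Egr1 (adjusted p 2.99e-06) and by 0.37 ± 0.05 with Junb (adjusted p 1.04e-06). Foxo1, a transcription factor that drives atrophy genes, changed by -0.39 ± 0.04 and 0.23 ± 0.05 (adjusted p 3.99e-10 and 0.0017), and Glul, glutamine synthetase, by -0.45 ± 0.05 and 0.30 ± 0.06 (adjusted p 2.8e-09 and 0.000655). Fkbp5, a co-chaperone of the glucocorticoid receptor, fell with Egr1 by 0.41 ± 0.08 (adjusted p 0.000259), and its slope on Junb of 0.19 ± 0.09 did not pass (adjusted p 0.238). Tsc22d3 and Klf15, both direct targets of the receptor, were the 2 that rose with Fos, by 0.22 ± 0.05 each (adjusted p 0.033 and 0.0152). When the block was added to the model, 14 of the 19 fell with Egr1 and 7 rose with Junb, and with the marker scores 12 fell and 6 rose. Of all genes, 1.55% fell with Egr1 and 1.35% rose with Junb with the block, and 1.72% and 0.446% with the marker scores. The number that rose with Fos was 2 with the block, against 0.26% of all genes, and 0 with the marker scores, against 0.149%.

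**Figure D5:**
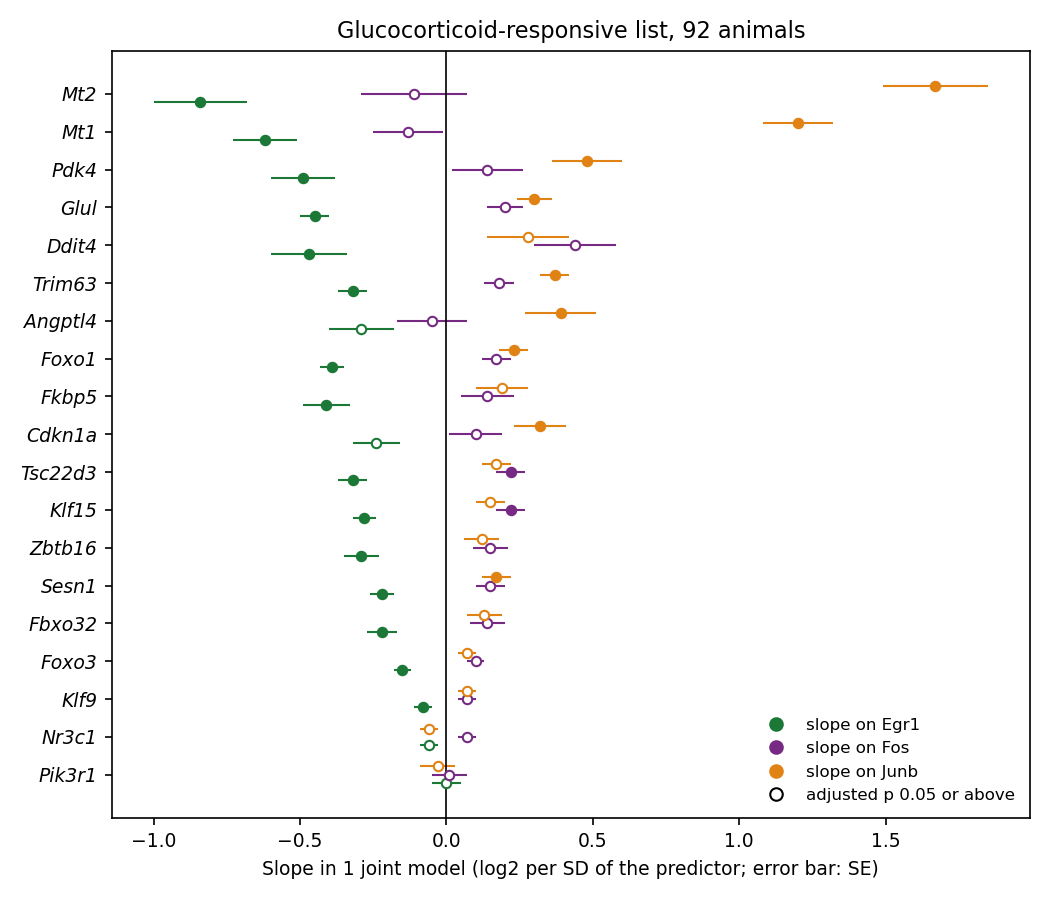
Slopes of the 19 glucocorticoid-responsive genes on Egr1, Fos and Junb in the model that holds all 3, over 92 animals, in log2 units per SD of the predictor; bars are standard errors and open points have an adjusted p of 0.05 or above. Slopes on Egr1 lie at or below 0 and slopes on Junb above 0 for 17 of the genes, with Mt2 at -0.84 and 1.67 the widest pair.

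The immediate-early genes outside the score were also read from this model. Of the 51 measured, 12 rose and 1 fell with Fos, against 0.29% and 0.119% of all genes, 8 rose with Junb, against 1.51%, and 7 rose and 13 fell with Egr1, against 3.93% and 2.72%. With the marker scores in the model 10 rose and 0 fell with Fos, 4 rose with Junb, and 4 rose and 8 fell with Egr1. With the block 11 rose and 2 fell with Fos, 7 rose with Junb, and 7 rose and 9 fell with Egr1. The shares of all genes in the same order were 0.149% and 0.0298%, 0.446%, and 1.17% and 1.72% with the marker scores, and 0.26% and 0.119%, 1.35%, and 2.2% and 1.55% with the block. The slope on Egr1 was above that on Fos in 4 of the 51 and below it in 18 (2.32% and 2.16% of all genes), above that on Junb in 5 and below it in 16 (3.28% and 2.19%), and the slopes on Fos and Junb differed in 5, all with Fos above Junb (0.171%). Ier2 and Egr2 rose with Egr1 (0.38 ± 0.04, adjusted p 5.6e-13, and 0.33 ± 0.09, adjusted p 0.0124) and had no slope past the threshold on the other two. For Ier2 the slope on Egr1 differed from those on Fos and Junb (adjusted p 0.0109 and 4.95e-06), whereas for Egr2 neither difference passed (adjusted p 0.572 and 0.13). Btg2, Plk3, Klf2, Nr4a1 and Jun rose with Fos, by 0.34, 0.48, 0.56, 0.41 and 0.26 (adjusted p 3.61e-06, 1.38e-05, 6.13e-08, 3.42e-06 and 0.000529). Their slopes on Fos and Junb differed for Plk3, Klf2 and Nr4a1 (adjusted p 0.00077, 0.000129 and 0.0275) and not past the threshold for Btg2 and Jun (adjusted p 0.331 and 0.157). Jun fell with Egr1 by 0.17 (adjusted p 0.00756), and its slopes on Egr1 and Fos differed (adjusted p 6.87e-05). Among the 13 that fell with Egr1, some had steeper slopes, such as Nr4a3, Nfil3 and Cebpd at -0.78, -0.54 and -0.50 (adjusted p 0.00432, 3.44e-06 and 3.44e-06). Cebpd and Maff, the latter at -0.35 on Egr1, rose with Junb by 0.48 and 0.42 (adjusted p 7.99e-05 and 2.35e-06). Myc rose with Junb by 0.37 (adjusted p 1.68e-06), but its slopes on Fos and Junb did not differ past the threshold (adjusted p 0.138), and Socs3 of the feedback list rose with Junb by 1.01 ± 0.13 (adjusted p 9.27e-09). Zfp36 rose with both Fos and Junb, by 0.23 and 0.29 (adjusted p 0.0399 and 0.000359), and Dusp1 rose with Egr1 and Fos and fell with Junb, by 0.13, 0.30 and 0.15 (adjusted p 0.0104, 3.82e-08 and 0.0101).

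Slopes were also large in genes outside the immediate-early and glucocorticoid lists. With Egr1 rose Tnmd, Kera, Fmod and Chad, all genes of tendon and dense connective tissue, by 0.47 to 0.48, and 5 of the 6 measured tendon markers passed, against 3.93% of all genes. When the block was added to the model 2 of the 6 passed, against 2.2%. With the marker scores as covariates, which include the tendon genes themselves, none of the 6 passed and the slope of Kera was -0.05. Dbp rose with Egr1 by 0.46 ± 0.11 (adjusted p 0.00363), while Slc25a25, a mitochondrial carrier, fell with Egr1 by 0.69 ± 0.12 and rose with Fos by 0.93 ± 0.13 (adjusted p 2.81e-05 and 7.86e-07). Apold1 rose with Fos by 0.74 ± 0.09 (adjusted p 1.75e-09) and fell with Junb by 0.33 ± 0.08 (adjusted p 0.0108). With Junb rose Rrad, a muscle GTPase, by 0.77 ± 0.14 (adjusted p 0.000359), and Lgals3, a lectin of activated macrophages, by 0.65 ± 0.12 (adjusted p 0.000313). Beside these, 3 of 10 macrophage markers rose with Junb (Cd68, C1qb and Ctss, by 0.36, 0.28 and 0.47), against 1.51% of all genes, and 1 of 10 did with the block in the model, against 1.35%. With Egr1 rose 4 of 10 endothelial and 3 of 10 mural markers, against 3.93%, and 2 and 3 did with the block, against 2.2%. With Junb fell 2 endothelial and 3 mural markers, against 1.44%, and 2 and 2 did with the block, against 1.39%. The part of these cell types in the slopes of other genes was not tested one by one. Exons of Mt2, Dbp, Slc25a25 and Rrad overlap those of another gene on the opposite strand. With the marker scores in the model the number of genes was 388 for Egr1, 24 for Fos and 94 for Junb.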

How the data were processed

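Polyadenylated RNA of quadriceps from 92 mice was measured, and the labels give 1 group. The deposited table holds log2 values made by the authors. Its scale is not stated: 2 raised to each value summed to 898071 to 1140761 per sample, so the values are taken as on an approximate per-million scale, and the depth of each library is unknown. Per the submitters' processing notes, bcl2fastq, MultiQC, kallisto 0.50.1, edgeR and the mm10 build were used; their roles, the filter on low genes and the use of strand are not given in the sources used here. Of 13456 lines, 15 repeats were removed, leaving 13441 genes.

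The score and groups were built as described above, and Egr1, Fos and Junb were left out of the tests. limma 3.58.1 in R 4.3.3 was fitted to all 13438 other genes (linear model, empirical Bayes with a mean-variance trend, Benjamini-Hochberg adjustment, threshold 0.05). The fit was tested on simulated data in which genes varied independently of each other, so that test does not cover genes that vary together. p-values measure the spread between animals. Named genes were the scoring genes, up to 15 rising and 10 falling genes past the threshold with a mean of at least 1, up to 4 per list, and 6 single genes; the other genes named, including those of the joint model, were chosen after their values were seen. The score, its genes, the comparison and the gene lists were chosen with earlier results of these data known. A list's count is a description, and no set test was run. Alternatives covered covariates, group size, scoring, filter, scaling, fit settings and left-out animals or blocks. The joint model was added after seeing the data. Promoter windows of 250 bases came from RefSeq (GRCm38.p6), and exon overlap from GENCODE M21. Of the 23 genes past the threshold, 1 is counted but not reported by name here.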

Additional observations from a re-analysis of the deposited data

How the results depend on the processing

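The count of 23 genes stayed within 1.5 times under 12 alternatives and moved under 12. It was 6 with marker scores as covariates, 11 with 15 against 15 animals, 127 as a slope over 92 animals, 0 in the 46 middle animals, 67 and 71 with Fos or Junb alone as the score, 14 among genes with a mean of at least 1, 15 when the 2 animals with the most extreme scores were dropped, and 5, 14, 7 and 9 without title-number blocks 1 to 4. The 6 immediate-early genes past the threshold became 3 with marker scores, 16 as a slope over 92 animals, 0 in the middle animals, 22 with Fos alone, 2 among genes with a mean of at least 1, and 3 without block 1, 3 or 4. Leaving out a block also leaves fewer animals; otherwise the cause was not tested. Of 24 alternatives, Ier2, Btg2 and Zfp36 passed in 23, Fosb and Dusp1 in 22, Apold1 in 20 and Arhgap22 in 6. Signs reversed as slopes in the middle animals for Stk26 (0.07), Arfgef1 (0.05), Tmem170b (0.05), Cenpa (-0.23) and Arhgap22 (-0.25), none past the threshold there.

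The joint model and 2 alternatives for the middle animals were chosen after seeing the data; the middle animals gave 1 gene among those with a mean of at least 1. In the joint model, Egr1 had 893 genes, 503 with the block and 388 with marker scores; Fos 55 and 24 with marker scores; Junb 396 and 94. The difference between Egr1 and Fos had 602 and 300 with marker scores, that between Egr1 and Junb 735, 478 with the block and 315 with marker scores, and that between Fos and Junb 53 and 9. The slope of Kera on Egr1 reversed to -0.05 with marker scores. No paired analysis was possible because the labels give 1 group and the replicate numbers only follow the order of deposit. Depth is unknown, so counting error for low genes such as Fosb could not be given.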
